A study of Mus musculus with 7 samples.

Results

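The 31 genes described here make, sense, store or export cholesterol, and were chosen by name from the pathway, with no measured value in the rule. Earlier results of these data were known when they were chosen. All 31 were listed among 21121 genes, and 30 passed the filter on low reads and were tested; Abcg1 did not. They comprise 18 synthesis enzymes, 6 proteins of sterol sensing and the response to it, 2 that move or esterify cholesterol, and 5 of the liver X receptor and efflux arm. Uptake is represented by Mylip alone, a ubiquitin ligase that marks lipoprotein receptors for degradation. The tag counts came from lung epithelial cells of C57BL/6 mice at 5 stages, from the embryo to the adult. There was 1 library at embryonic day 13.5 (E13.5), 1 at E15.5, 2 at E18.5, 1 at postnatal day 14 (P14) and 2 at P56. All groups had the same strain, with no transgene or treatment named, and cells were sorted as live, propidium iodide-negative, Epcam-positive cells lacking CD31, CD45, CD146 and Ter119. Nothing in the labels gives the number of animals per library or says that the E18.5 pair, or the P56 pair, came from separate animals; p-values here reflect the spread of these samples, which may be technical.

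Cells build cholesterol from acetyl-CoA through mevalonate, isoprenoid diphosphates, squalene and lanosterol, and the enzymes of this route are largely switched on together. When sterols are scarce, Scap escorts the transcription factor made from Srebf2 to the Golgi, where the proteases Mbtps1 and Mbtps2 release its active part; when sterols are plentiful, Insig1 and Insig2 hold it in the endoplasmic reticulum. Oxidised sterols activate the liver X receptors, which raise export through Abca1 and Abcg1. In the lung, alveolar type 2 cells secrete surfactant, a lipid film that contains cholesterol, while alveolar type 1 cells form the thin gas-exchange surface.

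Each library held between 2559927 reads at E15.5 and 3895740 at E13.5. The deposited values are tag counts divided by a factor per library, called scaled counts here, in which 1 read is worth 0.236 to 0.385. A 3' tag does not count genes equally, so a level is set only against the same gene in another library. Epcam was read in every library, at 55.8 to 213 scaled counts, as were Cdh1 at 104 to 286 and the lung epithelial factor Nkx2-1 at 502 to 1969. Ptprc and Pecam1, which encode CD45 and CD31 of the depletion, had 0 to 4 reads. In these bulk samples fewer cells of a type and less RNA per cell cannot be told apart.

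Promoters are shown for Hmgcs1, Mvk and Nsdhl, which held the most copies among the members of the CCAAT box, the letters read by the factor NF-Y. They are not typical windows, since Lss, Cyp51, Tm7sf2 and Sc5d held 1 copy each and Acat2 held 0. Among the members, Hmgcs1 alone also held an exact match to the sterol element searched. Each window runs from 250 bases before to 50 after the RefSeq start (GRCm38.p6), on the strand of the gene, and capitals mark CCAAT, written ATTGG when it lies on the opposite strand, and in Hmgcs1 also TCACNCCAC. The windows are chr13:119690101-119690400 (plus strand) for Hmgcs1, chr5:114444019-114444318 (plus strand) for Mvk and chrX:72918271-72918570 (plus strand) for Nsdhl.
Hmgcs1: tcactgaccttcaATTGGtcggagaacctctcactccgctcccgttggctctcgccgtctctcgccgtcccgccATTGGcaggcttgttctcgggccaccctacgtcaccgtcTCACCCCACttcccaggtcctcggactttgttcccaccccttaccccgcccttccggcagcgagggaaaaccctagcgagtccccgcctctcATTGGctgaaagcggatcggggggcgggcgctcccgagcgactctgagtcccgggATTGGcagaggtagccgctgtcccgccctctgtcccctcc
Mvk: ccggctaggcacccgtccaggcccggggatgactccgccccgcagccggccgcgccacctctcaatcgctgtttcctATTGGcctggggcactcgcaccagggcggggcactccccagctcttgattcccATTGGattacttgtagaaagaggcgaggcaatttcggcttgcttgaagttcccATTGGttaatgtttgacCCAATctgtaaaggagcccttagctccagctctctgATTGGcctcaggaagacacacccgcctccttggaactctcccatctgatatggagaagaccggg
Nsdhl: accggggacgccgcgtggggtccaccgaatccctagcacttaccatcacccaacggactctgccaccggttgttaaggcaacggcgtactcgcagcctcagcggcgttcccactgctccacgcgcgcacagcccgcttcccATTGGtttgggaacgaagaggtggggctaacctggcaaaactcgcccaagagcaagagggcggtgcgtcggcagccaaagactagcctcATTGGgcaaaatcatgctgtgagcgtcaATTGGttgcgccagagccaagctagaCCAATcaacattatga

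A RefSeq promoter was matched by symbol for 26 of the 31 genes, in 33 windows, and for 15 of the 18 synthesis genes. CCAAT on either strand stood in the windows of 14 of those 15 synthesis genes (93.3%), Acat2 being the one without it, and in 3941 of 9235 tested genes with a promoter (42.7%). Median GC content was 60.3% in the synthesis promoters and 61.0% in all tested ones. Mvk held 5 copies, and Hmgcs1 and Nsdhl 4 each. Outside synthesis the box was in Srebf2, Insig1, Insig2, Soat1 and Mylip, so 19 of 26 members (73.1%) held it. The sterol element TCACNCCAC, searched on both strands, was in Hmgcs1, 137 bases before the start, and in 1.44% of all genes with a promoter. The liver X receptor pattern, AGGTCA followed after any 4 bases by a second AGGTCA, was in 0 of 26 members and in 0.0148% of all genes. The liver X receptor pattern is so rare that its absence from 26 members cannot set them apart from other genes. Only exact matches were searched, so sterol or receptor elements that differ by a letter were not found. These matches are descriptions of letters in the windows and not of binding.

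Late in gestation Abca1 and Nr1h3 rose more than the other members, by ratio of means and by the log2 changes of limma and edgeR. Compared with E13.5 and E15.5 together, E18.5 had 12 of 30 members higher, where 15.8% of all 12964 genes tested were called higher, and 0 lower, where 13.4% were. No member was lower at an unadjusted p under 0.05 in limma either, where 2587 of all 12964 genes were. None was called lower at an adjusted p by edgeR, which called 12.9% of all genes lower. DESeq2 also called 0 lower, and its share of all genes is not given here. By edgeR 12 members were higher, where it called 17.9%. The 12 were Mvk, Idi1, Fdps, Fdft1, Lss, Srebf2, Insig1, Insig2, Stard4, Soat1, Nr1h3 and Abca1. Their number included 5 of 18 synthesis genes, and the median log2 change was 0.47 over synthesis, 0.76 over the 30 members and 0.03 over all genes. Both E18.5 libraries lay above both early ones for 19 of 30 members, against 32.5% of all genes, and below them for 0, against 30.5%. All tests were limma-trend on log2(value + 1), with Benjamini-Hochberg adjustment over all genes and an adjusted p under 0.05 called. Stages with 1 library were assumed to vary like E18.5 and P56, which left 2 residual degrees of freedom. Since limma also drew each gene's variance towards a trend fitted over all genes, the p-values do not rest on these alone.

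In the adult, 3 synthesis enzymes, the esterifying enzyme Soat1 and the receptor Nr1h3 were higher than before birth, and the exporter Abca1 was lower. P56 had 5 of 30 members higher than E18.5, where 8.07% of all genes were called, namely Pmvk, Tm7sf2, Nsdhl, Soat1 and Nr1h3. It had 1 lower, Abca1, where 6.15% were called. By edgeR 5 members were higher and 2 lower, Stard4 being the second, where 8.28% and 7.89% of all genes were called. Of the 18 synthesis genes 17 had a positive change, with a median of 0.53 against 0.06 over all genes, but 3 passed the test. The P56 libraries lay above both E18.5 libraries for 12 of 18 synthesis genes and for 16 of 30 members, against 31.6% of all genes. They lay below for 4 of 30, against 25.0%, which were Insig1, Mbtps1, Stard4 and Abca1.

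At P14 the sensor Insig1 and the carrier Stard4 were low and Soat1 was high. The P14 library had 1 of 30 members higher than E18.5, Soat1, where 1.87% of all genes were called, and 2 lower, Insig1 and Stard4, where 1.24% were. By edgeR 2 were higher, Nr1h3 being the second, and 2 lower, where 3.16% and 2.13% of all genes were called. None of the 18 synthesis genes was called by limma or by edgeR, and 4 were lower at an unadjusted p under 0.05 in limma, as were 964 of all 12964 genes. Their median log2 change was -0.38, against 0.08 over all genes, and 11 of the 18 were negative. P56 set against P14 gave 0 of 30 higher, where 0.123% of all genes were called, and 0 lower, where 0.694% were. At an unadjusted p under 0.05 limma had 14 members higher and 1 lower, and 647 and 693 of all 12964 genes. On the recovered reads edgeR called 1 higher, Fdps, where it called 0.571% of all genes, and 1 lower, Abca1, where it called 1.49%. DESeq2 called 2 higher and 0 lower, and its shares of all genes are not given here. The median over synthesis was 0.88, against 0.00 over all genes, and 17 of 18 were positive. These comparisons share the E18.5, P14 or P56 libraries, so they are not independent of each other. Leaving out any of the 4 replicated libraries left limma 1 residual degree of freedom and no member called in any comparison, whereas edgeR still made calls.

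**Figure D1:**
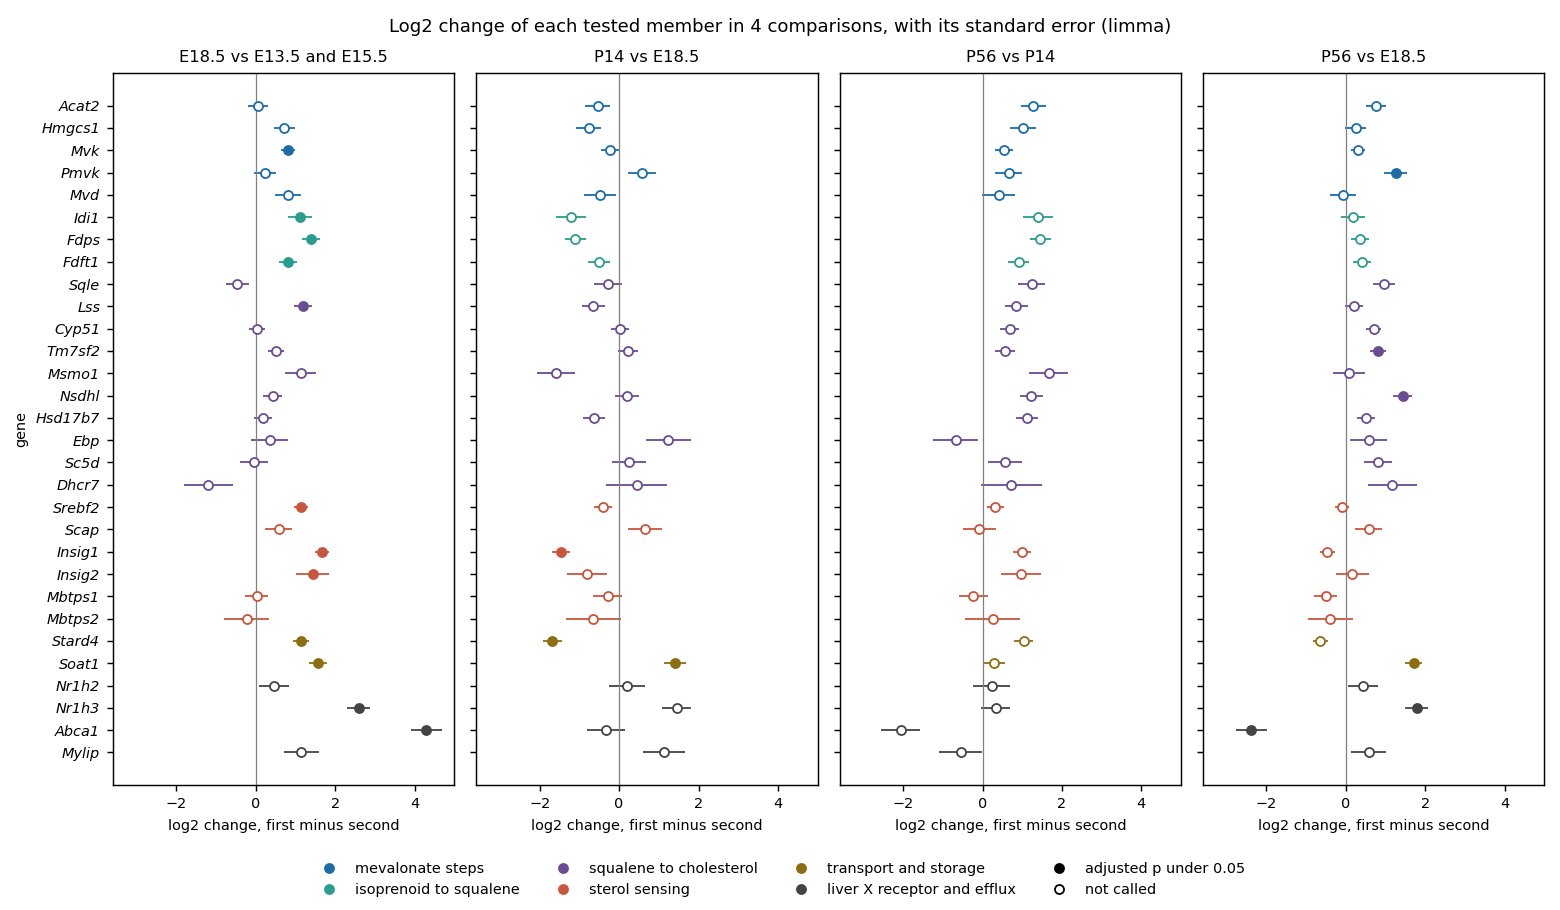
Log2 change of each tested member on the log2(value + 1) scale (horizontal axis, first stage minus second, bars are the standard error from limma) in 4 comparisons; filled points had an adjusted p under 0.05. E18.5 against the early stages has 12 filled points, all to the right of 0, and P56 against E18.5 has 5 to the right and Abca1 to the left.

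Of the 5 enzymes of the mevalonate steps, Mvk rose at E18.5 and Pmvk at P56, and the P14 value lay below those of E18.5 and P56 for all but Pmvk. Mvk, which phosphorylates mevalonate, had 185 scaled counts at E13.5, 175 at E15.5, 295 and 339 in the E18.5 pair, 269 at P14 and 382 and 405 in the P56 pair. Every library from E18.5 on was above both early ones. Mvk rose at E18.5 to 317 ± 31.5 (SD, n = 2), against a mean of 179.8 over E13.5 and E15.5, a log2 change of 0.81 (SE 0.182, limma adjusted p = 0.0153). The P56 mean was 1.24-fold that of E18.5 and not called (limma adjusted p = 0.308). The Mvk gene lies at chromosome 5, 114444269 to 114460591 (GRCm38), and is protein-coding, as are all 31.

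Pmvk, which adds the next phosphate, had 14.2 scaled counts at E13.5, 13.6 at E15.5, 15.8 and 17.3 in the E18.5 pair, 25.3 at P14 and 35.6 and 46.3 in the P56 pair. The 4 embryonic libraries stood close together, with P14 above them and both P56 libraries above P14. Pmvk rose at P56 to 40.9 ± 7.60, against 16.6 ± 1.09 at E18.5 (SD, n = 2 each), a log2 change of 1.25 (SE 0.281, limma adjusted p = 0.0268; edgeR adjusted p = 0.0205). The call was lost with DESeq2 (adjusted p = 0.147), without the filter, without robust variances and with the replicate block, and in edgeR without P56 replicate 1 (adjusted p = 0.0516) or replicate 2 (adjusted p = 0.177).

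Acat2, the cytosolic thiolase that joins acetyl-CoA units, had 31.0 scaled counts at E13.5, 16.9 at E15.5, 23.1 and 24.9 in the E18.5 pair, 16.2 at P14 and 41.0 and 40.8 in the P56 pair. Hmgcs1, which makes HMG-CoA, had 32.6 at E13.5, 11.8 at E15.5, 37.3 and 29.4 in the E18.5 pair, 19.0 at P14 and 40.4 and 38.9 in the P56 pair. In both genes E15.5 and P14 were the lowest values, and the P56 libraries lay above both E18.5 libraries. Neither passed a test in any comparison: for Acat2, P56 against E18.5 gave a log2 change of 0.75 (limma adjusted p = 0.0963), and for Hmgcs1, E18.5 against the early stages gave 0.72 (limma adjusted p = 0.0792). Acat2 has a near-identical copy, Acat3, and the authors' handling of shared tags is not stated, so its values are uncertain. Mvd, which removes a carboxyl group to give the first isoprene unit, ranged from 6.14 at E13.5 to 15.4 in an E18.5 library and passed no test.

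The 3 enzymes from isoprene units to squalene had similar courses, and all 3 rose at E18.5, where 15.8% of all genes were called higher. Fdps, which makes farnesyl diphosphate, had 35.9 scaled counts at E13.5, 19.7 at E15.5, 68.5 and 75.4 in the E18.5 pair, 33.0 at P14 and 87.4 and 98.1 in the P56 pair. The E18.5 and P56 libraries were all above those of E13.5, E15.5 and P14. At E18.5 Fdps averaged 71.9 ± 4.83 (SD, n = 2), against 27.8 over the early stages, 2.59-fold higher with a log2 change of 1.40 (SE 0.224, limma adjusted p = 0.00403). P14 was 2.18-fold lower than E18.5 (log2 change -1.10, limma adjusted p = 0.0891, edgeR adjusted p = 0.0513), and P56 was 2.81-fold higher than P14 (log2 change 1.46, limma adjusted p = 0.0804, edgeR adjusted p = 0.0341). The last 500 bases of Fdps overlap an exon of the predicted gene Gm43738 on the same strand, so its tags may include that transcript.

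Fdft1, the squalene synthase that commits the route to sterols, had 104 scaled counts at E13.5, 97.2 at E15.5, 176 and 178 in the E18.5 pair, 125 at P14 and 279.7 and 199 in the P56 pair. Its E18.5 mean was 1.76-fold that of the early stages, a log2 change of 0.81 (SE 0.223, limma adjusted p = 0.0323). The call was lost without the filter (0.158), without robust variances (0.0643) and with the replicate block (0.0718). Both P56 libraries stood above E18.5 without a call (limma adjusted p = 0.275). The 3' end of Fdft1 overlaps Ctsb on the opposite strand, and use of strand in counting is not stated, so reads of the pair cannot be told apart. Idi1, which interconverts the isoprene units, had 14.4 at E13.5, 7.89 at E15.5, 27.3 and 21.5 in the E18.5 pair, 9.90 at P14 and 32.2 and 23.6 in the P56 pair. Like Fdps and Fdft1, it was lowest at E15.5, P14 and E13.5. Idi1 rose 2.19-fold at E18.5 over the early stages, a log2 change of 1.11 (SE 0.309, limma adjusted p = 0.0337), a call lost with DESeq2 (adjusted p = 0.193), without the filter, without robust variances and with the replicate block.

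Among the 10 enzymes from squalene to cholesterol, 1 rose at E18.5 and 2 at P56, where 15.8% and 8.07% of all genes were called higher. All 10 had a positive change at P56 over E18.5, as did 6900 of all 12964 genes. Their median log2 change was 0.75, against 0.06 over all genes. Lss, which closes the sterol rings, had 29.5 scaled counts at E13.5, 28.0 at E15.5, 61.6 and 73.1 in the E18.5 pair, 42.4 at P14 and 71.7 and 83.2 in the P56 pair. The early libraries were lowest, P14 was between, and E18.5 and P56 overlapped. At E18.5 Lss averaged 67.3 ± 8.13 (SD, n = 2), against 28.8 in the early stages, a log2 change of 1.19 (SE 0.234, limma adjusted p = 0.00912).

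Nsdhl, a dehydrogenase that helps strip methyl groups from the sterol ring, had 56.5 scaled counts at E13.5, 44.5 at E15.5, 57.8 and 80.3 in the E18.5 pair, 78.1 at P14 and 169 and 202 in the P56 pair. The adult libraries stood apart from all 5 younger ones, which overlapped. Nsdhl rose at P56 to 185.6 ± 23.8, against 69.0 ± 15.9 at E18.5 (SD, n = 2 each), 2.69-fold, with a log2 change of 1.43 (SE 0.242, limma adjusted p = 0.00937, edgeR adjusted p = 0.00246). Tm7sf2, the reductase that acts on the product of Cyp51, had 62.9 at E13.5, 48.8 at E15.5, 75.1 and 84.0 in the E18.5 pair, 93.5 at P14 and 133 and 145 in the P56 pair. Its value was higher at each stage from E15.5 on, with no overlap between P56 and E18.5. Tm7sf2 rose at P56 to 139 ± 9.06, against 79.5 ± 6.32 at E18.5 (SD, n = 2 each), a log2 change of 0.80 (SE 0.205, limma adjusted p = 0.0417, edgeR adjusted p = 0.0458). That call was lost with DESeq2 (adjusted p = 0.127), with TMM scaling (0.0565), without the filter, without robust variances and with the replicate block. In edgeR it was lost without E18.5 replicate 1 (adjusted p = 0.102), P56 replicate 1 (0.151) or P56 replicate 2 (0.239).

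Sqle and Cyp51 were high at both ends of the series. Sqle, which adds oxygen to squalene, had 157 scaled counts at E13.5, 65.7 at E15.5, 96.2 and 56.1 in the E18.5 pair, 60.5 at P14 and 149.7 and 139 in the P56 pair. Cyp51, which demethylates lanosterol, had 333 at E13.5, 125 at E15.5, 194 and 223 in the E18.5 pair, 211 at P14 and 364 and 313 in the P56 pair. In each gene E13.5 lay within or beside the adult range and every stage between was lower. P56 was 1.89-fold higher than E18.5 for Sqle (log2 change 0.96, limma adjusted p = 0.0637) and 1.62-fold higher for Cyp51 (log2 change 0.70, limma adjusted p = 0.0526), neither of them called. Cyp51 overlaps Akap9 on the opposite strand at its 3' end, so its values are uncertain for the same reason as those of Fdft1.

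Hsd17b7, a ketoreductase of the same demethylation steps, followed that course, with 87.9 scaled counts at E13.5, 39.1 at E15.5, 60.1 and 74.2 in the E18.5 pair, 42.6 at P14 and 99.0 and 90.4 in the P56 pair. No comparison of it passed the test. The other 4 had few tags: Msmo1, the methyl sterol oxidase, ranged from 2.48 at P14 to 12.5 in a P56 library, and the desaturase Sc5d from 5.38 at E15.5 to 15.5 at P56. Ebp, a sterol isomerase, ranged from 4.25 at E13.5 to 16.5 at P14, and Dhcr7, a reductase of the final steps, from 1.13 in an E18.5 library to 11.6 at E13.5. None of these was called, and Dhcr7 rested on 3 to 49 reads a library, with 13 and 3 in the E18.5 pair.

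**Figure D2:**
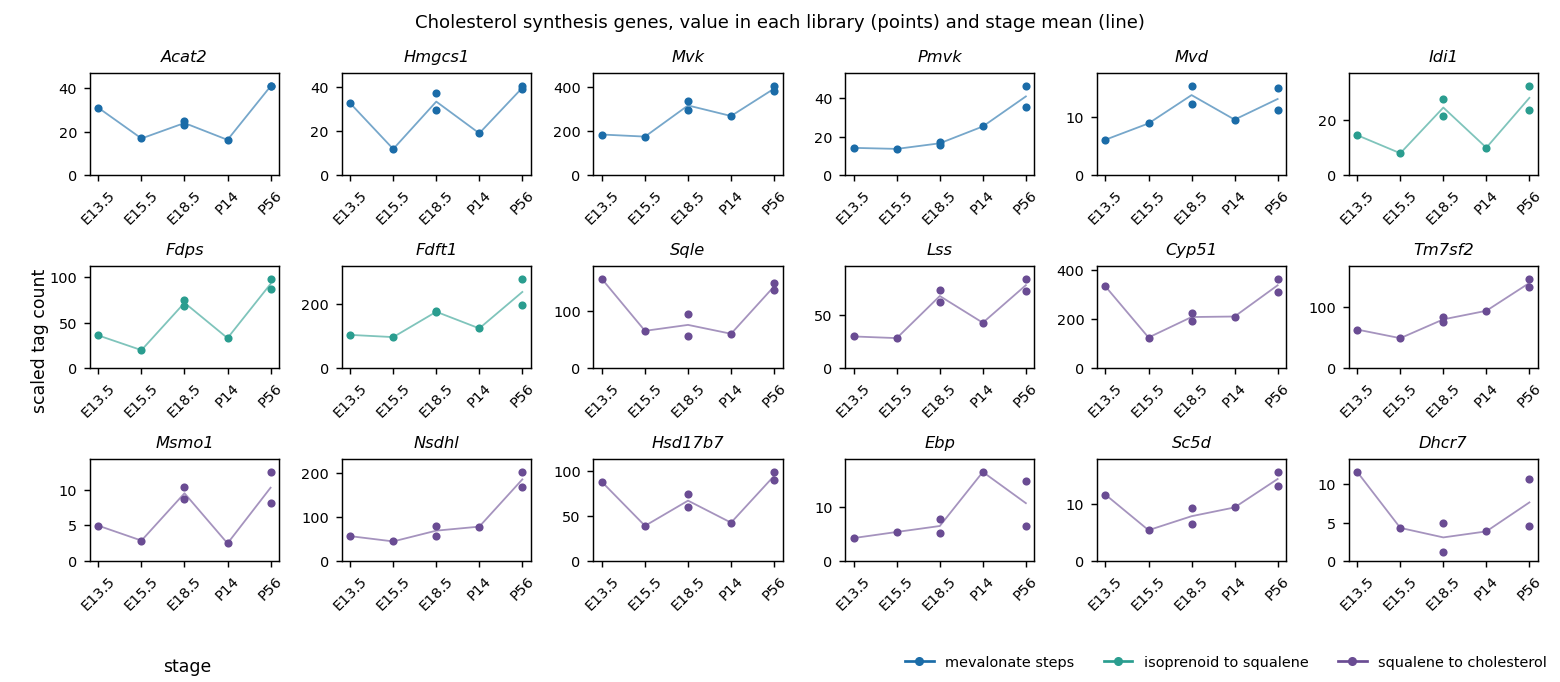
Scaled tag count of the 18 synthesis genes (vertical axis) at each stage (horizontal axis), with a point for each library and a line through the stage means. Nsdhl, Tm7sf2 and Pmvk were highest in the P56 libraries, while Sqle, Cyp51 and Hsd17b7 were high at E13.5 and at P56, and Fdps, Idi1 and Msmo1 were low at E15.5 and P14.

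The stage with the highest mean was P56 for 14 of the 18 synthesis genes, against 21.7% of all genes, and E18.5 for Mvd alone. The summed scaled count of the 18 was 1183 at E13.5, 720.1 at E15.5, 1232 and 1313 in the E18.5 pair, 1067 at P14 and 1935 and 1885 in the P56 pair. It averaged 1910.0 ± 35.8 at P56 and 1273 ± 57.3 at E18.5 (SD, n = 2 each). As sums they are led by the genes with most tags, Mvk, Cyp51, Fdft1 and Sqle.

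E15.5 was a low point for synthesis. No test was run between these 2 single libraries, which have no replicate check, and their values are set side by side. Of the 18 synthesis genes 16 were lower at E15.5 than at E13.5, against 48.0% of all genes, Mvd and Ebp being the exceptions. The median log2 difference was -0.71, against 0.00 over all genes. By at least 2-fold on the log2(value + 1) scale, 5 of 18 were lower, against 8.18% of all genes: Hmgcs1, Sqle, Cyp51, Hsd17b7 and Dhcr7, 2.25-fold to 2.75-fold in scaled counts. Cyp51 had 125 at E15.5, with an exact 95% Poisson interval of 112 to 139, against 333 (316 to 351) at E13.5, and Hmgcs1 had 11.8 (8.15 to 16.6) against 32.6 (27.4 to 38.5). These intervals cover counting error only.

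For 15 of the 18 synthesis genes E15.5 lay below both E13.5 and the E18.5 mean, against 21.7% of all genes. The P14 library lay below every E18.5 and P56 library for 10 of 18, against 14.8% of all genes. Those 10 were Acat2, Hmgcs1, Mvk, Mvd, Idi1, Fdps, Fdft1, Lss, Msmo1 and Hsd17b7. Among the other members the same held for Srebf2, Insig1, Insig2 and Stard4.

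Of the genes grouped under sterol sensing, Srebf2, Insig1 and Insig2 rose at E18.5, and Insig1 fell at P14. Srebf2, which encodes the transcription factor of the synthesis genes, had 235 scaled counts at E13.5, 181 at E15.5, 423 and 484 in the E18.5 pair, 339 at P14 and 421 and 429 in the P56 pair. The early libraries were lowest and the P56 libraries lay within or just below the E18.5 range. Srebf2 averaged 453 ± 43.4 at E18.5 (SD, n = 2), against 208 over the early stages, 2.18-fold higher with a log2 change of 1.13 (SE 0.178, limma adjusted p = 0.00379). At P56 it averaged 425 ± 6.28 (SD, n = 2), a log2 change of -0.09 from E18.5 (limma adjusted p = 0.791), and the P14 value was 1.34-fold lower than E18.5 (limma adjusted p = 0.366).

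Insig1, which retains the Scap complex when sterols are plentiful and is itself a target of it, had 74.0 scaled counts at E13.5, 110.2 at E15.5, 304 and 276 in the E18.5 pair, 104 at P14 and 206 and 211 in the P56 pair. E18.5 stood above every other stage, P56 was intermediate, and P14 lay within the early range. Insig1 averaged 290.2 ± 19.8 at E18.5 (SD, n = 2), against 92.1 over the early stages, 3.15-fold higher with a log2 change of 1.67 (SE 0.185, limma adjusted p = 0.000826). At P14 it fell 2.80-fold below E18.5, a log2 change of -1.47 (SE 0.226, limma adjusted p = 0.0221, edgeR adjusted p = 0.00478), a call lost without robust variances (0.0836) and with the replicate block (0.152). P56 averaged 208 ± 2.98 (SD, n = 2), with no overlap with E18.5 and no call (log2 change -0.47, limma adjusted p = 0.138), and was 2.01-fold above P14 (limma adjusted p = 0.131). The gene spans chromosome 5, 28071363 to 28078662 (GRCm38).

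Insig2, its relative, had 3.07 scaled counts at E13.5, 1.44 at E15.5, 6.16 and 9.04 in the E18.5 pair, 3.85 at P14 and 8.82 and 8.10 in the P56 pair, which is 17 reads over the early stages and 40 at E18.5. Its E18.5 libraries lay above both early ones, and P14 lay between. Insig2 rose 3.37-fold at E18.5 (log2 change 1.43, SE 0.410, limma adjusted p = 0.0368). The call was lost with DESeq2 (0.27), without the filter, without robust variances and with the replicate block, and in edgeR without E18.5 replicate 2 (0.103), P56 replicate 1 (0.0601) or P56 replicate 2 (0.0572).

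The partners of Srebf2 showed no called change. Scap, the escort, ranged from 4.96 scaled counts at E13.5 to 15.2 in a P56 library, the protease Mbtps1 from 30.1 at P56 to 60.3 at E18.5, and the protease Mbtps2 from 0.972 at P56 to 5.91 at E13.5. For Mbtps1 the E18.5 libraries themselves differed, at 38.5 and 60.3, and both P56 libraries lay below them. Mbtps2 had 5 reads at P14, too few to show a change.

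Soat1 was higher at each later stage from E15.5 on, and Stard4 had its highest values at E18.5. Soat1, which esterifies cholesterol for storage in lipid droplets, had 44.2 scaled counts at E13.5, 34.8 at E15.5, 133 and 106 in the E18.5 pair, 317 at P14 and 351 and 435 in the P56 pair. The early, E18.5 and later libraries formed separate levels without overlap. Soat1 averaged 119.5 ± 19.3 at E18.5 (SD, n = 2), against 39.5 over the early stages, a log2 change of 1.57 (SE 0.218, limma adjusted p = 0.00221). P14 was 2.65-fold above E18.5 (log2 change 1.41, SE 0.268, limma adjusted p = 0.0402, edgeR adjusted p = 0.0102), a call lost with TMM scaling (0.0556), without the filter (0.177), without robust variances (0.116) and with the replicate block (0.21).

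P56 averaged 393 ± 59.7 for Soat1, against 119.5 ± 19.3 at E18.5 (SD, n = 2 each), 3.29-fold higher with a log2 change of 1.71 (SE 0.218, limma adjusted p = 0.00315, edgeR adjusted p = 0.000337). Between P56 and P14 the difference was 1.24-fold and not called (limma adjusted p = 0.803). The gene lies at chromosome 1, 156424525 to 156474331 (GRCm38).

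Stard4, a cytosolic sterol carrier, had 131 scaled counts at E13.5, 144 at E15.5, 275 and 338 in the E18.5 pair, 94.6 at P14 and 199 and 192 in the P56 pair. E18.5 was highest and P14 lowest, with P56 between the early stages and E18.5. Stard4 averaged 306 ± 45.1 at E18.5 (SD, n = 2), against 137.5 over the early stages, a log2 change of 1.14 (SE 0.196, limma adjusted p = 0.00535). At P14 it fell 3.24-fold below E18.5, a log2 change of -1.68 (SE 0.240, limma adjusted p = 0.0187, edgeR adjusted p = 0.00291), a call lost without the filter (0.0763), without robust variances (0.0843) and with the replicate block (0.151). P56 averaged 195 ± 4.87 (SD, n = 2), a log2 change of -0.64 from E18.5 that edgeR called (adjusted p = 0.0339) and limma did not (adjusted p = 0.0727).

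Nr1h3 and Abca1 both rose at E18.5 and then changed in opposite directions, the receptor rising and the exporter falling between E18.5 and P56. Nr1h3, the liver X receptor alpha, had 1.65 scaled counts at E13.5, 11.5 at E15.5, 26.9 and 41.8 in the E18.5 pair, 93.5 at P14 and 106 and 131 in the P56 pair. Each stage lay above the one before it without overlap. Nr1h3 averaged 34.4 ± 10.5 at E18.5 (SD, n = 2), against 6.57 over the early stages, 5.24-fold higher with a log2 change of 2.59 (SE 0.299, limma adjusted p = 0.000998). It rose again at P56, to 118 ± 18.1 (SD, n = 2), 3.44-fold over E18.5 with a log2 change of 1.78 (SE 0.299, limma adjusted p = 0.00896, edgeR adjusted p = 0.00144). The P14 value was 2.72-fold above E18.5, which edgeR called (adjusted p = 0.0339) and limma did not (0.0914).

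Abca1, which hands cellular cholesterol to lipid-poor apolipoproteins, had 0.236 scaled counts at E13.5 (1 read), 3.59 at E15.5 (10 reads), 48.5 and 43.3 in the E18.5 pair, 36.3 at P14 and 11.4 and 5.51 in the P56 pair. E18.5 and P14 were high, and both adult libraries were below P14 and above E15.5. Abca1 averaged 45.9 ± 3.66 at E18.5 (SD, n = 2), against 1.91 over the early stages, 24.0-fold higher on 241 reads against 11, with a log2 change of 4.30 (SE 0.395, limma adjusted p = 0.000396). At P56 it fell to 8.44 ± 4.16 (SD, n = 2), 5.44-fold below E18.5, a log2 change of -2.38 (SE 0.395, limma adjusted p = 0.00855, edgeR adjusted p = 0.000868). P56 was 4.30-fold below P14, which edgeR called (log2 change -2.08, adjusted p = 0.0315) and limma did not (log2 change -2.06, adjusted p = 0.151).

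Nr1h2, the liver X receptor beta, had 8.03 scaled counts at E13.5, 5.74 at E15.5, 7.70 and 12.1 in the E18.5 pair, 11.3 at P14 and 11.1 and 16.2 in the P56 pair. The stages overlapped and no comparison was called, the lowest limma adjusted p being 0.406. Mylip had 1 read at E13.5, 7 at E15.5, 9 and 10 in the E18.5 pair, 33 at P14 and 17 and 22 in the P56 pair, from 0.236 to 9.08 scaled counts, and passed no test. Abcg1, the other sterol exporter, was read 2 times in the E13.5 library, 1 time at E15.5, 2 times in P56 replicate 1 and 0 times in the other 4 libraries, where a count of 0 allows up to 3 reads, so its level was not detectable at this depth. At E15.5 Nr1h3 was 6.94-fold higher than at E13.5 in scaled counts, on 32 and 7 reads. Abca1 and Mylip rested on 1 read at E13.5, each 0.236 with an exact 95% Poisson interval up to 1.32, while E15.5 had intervals of 1.72 to 6.60 for Abca1 and 1.01 to 5.18 for Mylip. These 3 of 30 members were at least 2-fold higher at E15.5 on the log2(value + 1) scale, against 13.4% of all genes.

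**Figure D3:**
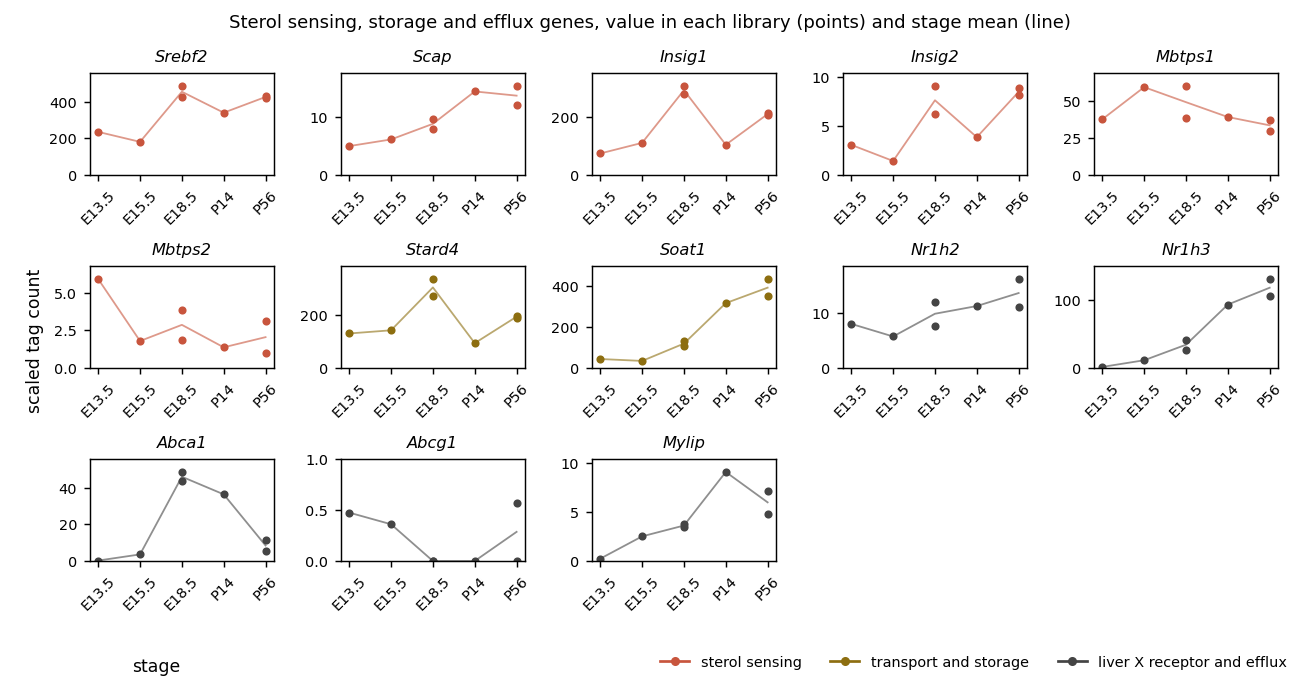
Scaled tag count of the 13 sensing, storage and efflux genes (vertical axis) at each stage (horizontal axis), with a point for each library and a line through the stage means. Soat1 and Nr1h3 were higher at P56 than at E18.5, Insig1 and Stard4 were high at E18.5 and low at P14, and Abca1 was high at E18.5 and P14 alone.

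Without the filter on low values, the calls at P56 against E18.5 for Nsdhl (limma adjusted p = 0.151), Soat1 (0.0991), Nr1h3 (0.158) and Abca1 (0.162) were lost, and so was Soat1 at E18.5 against the early stages (0.0509). These 4 kept their P56 calls in edgeR with each replicated library left out in turn. Fdps, Srebf2, Insig1, Stard4, Nr1h3 and Abca1 kept their call at E18.5 over the early stages under all 8 alternatives that used every library, and in edgeR with each left out. With the replicate block Mvk (0.0764), Lss (0.0525), Fdft1, Idi1 (0.0558) and Insig2 (0.121) were not called there.

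The summed values of the groups followed separate courses. The 6 sensing genes summed to 361 scaled counts at E13.5, 359.9 at E15.5, 785 and 839 in the E18.5 pair, 502 at P14 and 688 and 694 in the P56 pair. The 10 enzymes after squalene summed to 759.7 at E13.5, 369 at E15.5, 577 and 612 in the E18.5 pair, 560.1 at P14 and 1022 in each P56 library. The sensing sum was highest at E18.5 and is led by Srebf2 and Insig1, the 2 of the 6 with their highest mean there. The sum of the enzymes was highest at P56. The liver X receptor and efflux genes summed to 10.6 at E13.5, 23.7 at E15.5, 86.6 and 101 in the E18.5 pair, 150.2 at P14 and 133 and 160.0 in the P56 pair. Abca1 and Nr1h3 together gave most of the E18.5 sums, and Nr1h3 most of the later ones.

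**Figure D4:**
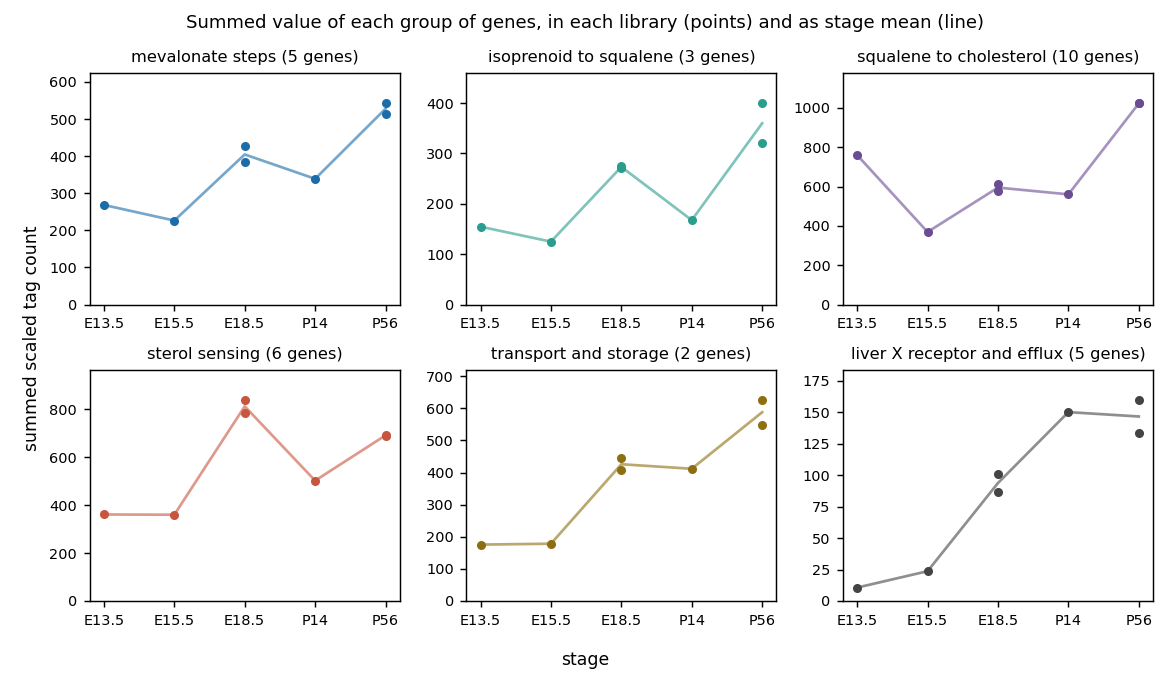
Summed scaled tag count of the genes of each role (vertical axis) at each stage (horizontal axis), with a point for each library and a line through the stage means. The sterol-sensing sum, led by Srebf2 and Insig1, is highest at E18.5, at 785 and 839, and the steps from squalene to cholesterol at P56, at 1022 in both libraries.

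Summed RNA of epithelial cell type markers also differed between stages. Neither the type 2 nor the type 1 sum had the low points of the synthesis sum at E15.5 and P14. The sum of the 6 epithelial markers lacked them too. Single markers differed: Krt8 was lowest at P14 and E15.5, with 55.3 and 72.1 scaled counts. Foxj1 had 11.0 at P14, against 55.1 and 67.4 in the E18.5 pair and 66.9 and 73.2 in the P56 pair. Whether the mix of cells bears on the synthesis course was not tested. The 10 alveolar type 2 markers, summed to 233 scaled counts at E13.5, 2267 at E15.5, 10212 and 9826 in the E18.5 pair, 36989 at P14 and 48727 and 54633 in the P56 pair. The 10 alveolar type 1 markers summed to 2014 at E13.5, 9070.5 at E15.5, 18738 and 21236 in the E18.5 pair, 23901 at P14 and 11786 and 12951 in the P56 pair. The type 2 sum was thus higher at every later stage, like Nr1h3 and, from E15.5 on, Soat1. From E15.5 on it was mostly Sftpc and Sftpb, with 15516 and 11751 at P14. Etv5 was lower in the E18.5 pair, with 75.8 and 64.1, than at E13.5, with 143. Abca3 and Napsa were lower at P56 than at P14. The type 1 sum was lower at P56 than at P14 and E18.5, like Abca1. That sum was highest at P14, whereas Abca1 was highest at E18.5. Cldn18 made up most of the type 1 sum. Aqp5, the other large share at P56, was higher there than at E18.5, with 2545 and 3000 at P56 and 1931 and 2181 at E18.5. Other type 1 markers were lower by more than the sum, such as Pdpn, with 1.99 and 1.30 at P56 and 57.4 and 44.8 at E18.5, and Cav1, with 5.98 and 4.53 at P56 and 181 and 149 at E18.5. The part of these cells in the results was not tested. The 8 genes of dividing cells summed to 1391 and 1305 at E13.5 and E15.5 and to between 17.3 and 76.4 later, and the 4 club cell markers in the files to 2.60 at E13.5 and to 4274 and 5154 at P56; their part was not tested.

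Summed markers of other cells were as follows. The 7 immune markers in the files, of 10 listed, summed to 0 to 16.3 scaled counts, the 5 erythroid ones to 0 to 47.1 and the 8 endothelial ones to 33.6 to 245. Most of the endothelial sum from E18.5 on was Esam, with 31 to 777 reads a library, while Pecam1 and Cdh5 had 0 to 4. The 9 mesenchymal markers summed to 2606 at E13.5 and 1393 at E15.5 and to between 96.5 and 255 from E18.5 on, and Vim alone gave 2564 and 1193 of the early sums. The part of these cells in the comparisons with E13.5 and E15.5 was not tested.

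Of 31 further genes of sterol handling that are not among the 31 described, 26 were tested. At E18.5 against the early stages 9 of the 26 were higher and 0 lower by limma, where 15.8% and 13.4% of all genes were called. At P56 against E18.5 3 were higher and 2 lower, where 8.07% and 6.15% were. At P14 against E18.5 1 was higher, where 1.87% were, and at P56 against P14 1 was lower, where 0.694% were. Lipa, the lysosomal acid lipase that frees cholesterol from its esters, had 39.9 scaled counts at E13.5, 35.9 at E15.5, 100.5 and 132 in the E18.5 pair, 49.0 at P14 and 3.98 and 1.30 in the P56 pair. Only the adult libraries were near 0, on 14 and 4 reads. Lipa rose at E18.5 over the early stages (log2 change 1.58, SE 0.398, limma adjusted p = 0.0235). It fell to 2.64 ± 1.90 at P56, against 116 ± 22.5 at E18.5 (SD, n = 2 each), a log2 change of -5.10 (SE 0.398, limma adjusted p = 0.000366), and was also below P14 (log2 change -3.88, limma adjusted p = 0.0172).

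Npc2, which carries the freed cholesterol out of the lysosome, had 929 ± 265 scaled counts at P56, against 402 ± 5.88 at E18.5 (SD, n = 2 each), a log2 change of 1.17 (limma adjusted p = 0.016), and it was higher at E18.5 than in the early stages by 1.57 (limma adjusted p = 0.00271). Lipa and Npc2 thus changed in opposite directions between E18.5 and the adult. Por, the reductase that feeds electrons to Cyp51 and Sqle, had 57.0 ± 1.35 at P56, against 23.4 ± 0.627 at E18.5 (SD, n = 2 each), a log2 change of 1.25 (limma adjusted p = 0.0177). Vldlr, a receptor for triglyceride-rich lipoproteins, averaged 108 ± 25.3 at E18.5 (SD, n = 2), against 2.84 at E13.5 and 21.2 at E15.5, a log2 change of 3.54 (SE 0.254, limma adjusted p = 0.000154). Nceh1, a cholesteryl ester hydrolase, Stard3, a sterol carrier of late endosomes, and Srebf1, the relative of Srebf2 that drives fatty acid synthesis, rose at E18.5 by 2.16, 1.96 and 1.16 on the log2 scale (limma adjusted p = 0.00265, 0.00504 and 0.0163).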

How the data were processed

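Polyadenylated RNA of sorted cells was amplified and read as 3' SAGE tags on an Ion Proton, per the labels' protocols. Deposited is a signal for every gene: tag counts that the authors scaled by 1 factor a library, since each column gave whole reads for 100.0% of values within 0.01 reads once divided by its smallest step. The mm10 build, R 3.4.0 and Bowtie2 2.2.5 are named, per the submitters' processing notes. The counting program, annotation, filters, strand setting and scaling method are not given in the sources used here.

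Genes passing edgeR's filterByExpr by stage, 12964 of 21121, entered limma-trend on log2(value + 1), with robust variances and all 7 libraries fitted together by stage, and an adjusted p under 0.05 was called. Because the values are scaled, edgeR and DESeq2 on the recovered reads were alternatives, with TMM scaling, no filter, pseudocounts of 5 and 0.5, non-robust variances, a replicate block and each replicated library left out. Ratios are of mean scaled counts and carry no pseudocount, which pulls log2 changes of low genes towards 0. TMM factors differed from the deposited scaling by -0.048 to 0.044 on the log2 scale. Scripts were tested on simulated data. Replicate pairs differed beyond counting noise, with a chi-square per degree of freedom of 9.59 at E18.5 and 7.5 at P56.

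Members and lists were chosen with earlier results of these data known. Every member is given by its range or its values; in full were members called in a comparison, Insig1, Srebf2, Abca1, Abcg1, Nr1h2 and Nr1h3 always, and, for each comparison, up to 6 other called genes of the pathway by smallest p. Some genes this rule would name are not reported here. Coordinates and overlaps within the last 500 bases are from GENCODE (GRCm38), promoters from RefSeq. Versions were Python 3.11.15, scipy 1.17.1, matplotlib 3.10.9, DESeq2 1.42.0, edgeR 4.0.16, limma 3.58.1 and R 4.3.3.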

Additional observations from a re-analysis of the deposited data

How the results depend on the processing

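For P56 against E18.5 the 5 members called higher became 3 with DESeq2, 3 without robust variances, 3 with the replicate block and 1 without the filter, and the 1 called lower became 2 with edgeR and 0 without the filter. For E18.5 against the early stages, 12 higher became 7 with the replicate block, 8 without the filter, 9 without robust variances and 10 with DESeq2. For P14 against E18.5, 1 higher became 2 with edgeR and 0 with TMM scaling, no filter, non-robust variances or the replicate block, and 2 lower became 1 without the filter and 0 with non-robust variances or the replicate block. For P56 against P14, 0 higher became 1 with edgeR, 2 with DESeq2 and 1 without the filter, and 0 lower became 1 with edgeR. Pseudocounts of 5 and 0.5 changed no call. Apart from edgeR, the shares of all genes called under these alternatives are not given here. Changes in the counts therefore do not set members against all genes.

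With a replicated library left out, limma and edgeR together gave 0 to 6 higher and 0 to 3 lower for P56 against E18.5, 0 to 13 and 0 to 2 for E18.5 against the early stages, 0 to 2 and 0 to 4 for P14 against E18.5, and 0 to 10 and 0 to 1 for P56 against P14. In limma, on 1 residual degree of freedom, every such count was 0. The calls lower at E18.5 came without E18.5 replicate 1, and the most calls higher at P56 over P14 without either E18.5 library, all in edgeR. Shares of all genes called in these fits are not given here, so the counts do not set members against all genes.

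Some changes that had not been called turned direction. Srebf2 at P56 against E18.5, -0.09, was 0.01 in limma without E18.5 replicate 2, in a range of -0.25 to 0.01 over the libraries left out. Nr1h2 at P14 against E18.5, 0.20, was -0.09 in limma and -0.16 in edgeR without E18.5 replicate 1. Nr1h2 at P56 against P14, 0.23, was -0.04 with the replicate block, and -0.02 in limma and -0.01 in edgeR without P56 replicate 2, in a range up to 0.52. The cause was not tested.

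Deviations of same-numbered E18.5 and P56 libraries correlated at r = 0.01 over 12964 genes, so no pairing by replicate number showed over all genes together. A single correlation over all genes cannot exclude a link limited to some of them. Depth limits Abcg1, Mylip, Mbtps2, Insig2 and Dhcr7, which had few reads. Stages with 1 library have no replicate check of their own.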
